A study of Homo sapiens with 18 samples.

Results

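The genes described here handle or sense thyroid hormone, and their signals come from arrays that carried RNA of FTC-133, a line of human cells derived from a follicular carcinoma of the thyroid. They are the nuclear receptors THRA and THRB, the deiodinases DIO1, DIO2 and DIO3, the transporter SLC16A10, the intracellular binding protein CRYM and the plasma carrier TTR. All probe sets whose only gene symbol in the platform annotation is one of these 8 genes were taken, which gave 19 of 54675 probe sets, for 8 of 19775 genes that have a probe set of their own: 4 for THRA, 3 for THRB, 5 for DIO2, 3 for SLC16A10 and 1 each for the other 4 genes.

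Untreated FTC-133 cells, grown under standard conditions, gave 1 RNA sample, and aliquots of 1 hybridization mix went onto 3 HG-U133 Plus 2.0 arrays. All 18 scans therefore carry the same transcripts. They differ in the array hybridized, in staining, in the number of stringent washing cycles and in the order of scanning. Array A was stained with no stringent cycle before, array B after 2 and array C after 6 cycles. Arrays A and B were then scanned after 0, 2, 7 and 17 additional cycles (scans A1 to A4 and B1 to B4), and array C once (C1). A second series repeated staining, washing and scanning by the same scheme (A5 to A8, B5 to B8 and C2), so that the total ran from 0 cycles on scan A1 to 38 on scan B8. The line is a single culture of tumour cells and stands for no healthy thyroid tissue.

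The thyroid secretes mainly thyroxine, a prohormone. Carriers such as TTR hold it in plasma and cerebrospinal fluid, membrane transporters take it into cells, and deiodinases, which carry selenocysteine in the active centre, remove iodine from it. DIO1 and DIO2 make the active triiodothyronine, and DIO3 inactivates both hormones. Triiodothyronine binds the receptors encoded by THRA and THRB, which sit on DNA mostly as heterodimers with retinoid X receptors and exchange corepressors for coactivators when hormone is bound.

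Values are MAS5 signals, which combine the perfect match and mismatch intensities of a probe set into 1 number per scan. The authors had scaled each scan to the same trimmed mean, 250.02 to 250.06. The median signal of a scan still ran from 51.0 on C1 to 136 on A1, and values relative to it, on the log2 scale, are called relative log2 signals here. No detection call was used. As a description of low signal, each value was also set against the 95th percentile of 107 probe sets for olfactory receptors on the same scan, which ran from 78.7 on C1 to 326 on A1. Brightness also depends on the sequence of the probes, so that signals of different probe sets are not set against each other as transcript levels. Of the thyroid markers measured, the transcription factors PAX8 (757 on scan C1) and NKX2-1 (766) lay above that limit on all 18 scans. The limit was passed on 11 scans by HHEX, on 5 by the iodide transporter SLC5A5, on 1 by thyroglobulin (TG) and on none by FOXE1, TSHR, SLC26A4 and DUOX2. None of 8 hepatocyte and 4 leukocyte markers passed it on all scans, but 2 of 5 neuronal genes did, SYT1 (1901 on C1) and NEFL (957).

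None of the 19 probe sets lay above the olfactory receptor limit on all 18 scans, 10 did so on some scans and 9 on none. Among all probe sets of the array 17.0% passed on all scans and 45.2% on none. On scan C1, washed by the standard protocol, the members had signals from 2.01 to 128, and 8 of 19 lay above the median of that scan. Over all scans 1 probe set, for THRA, was always above the scan median, and 2, for TTR and SLC16A10, were always below it.

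**Figure D1:**
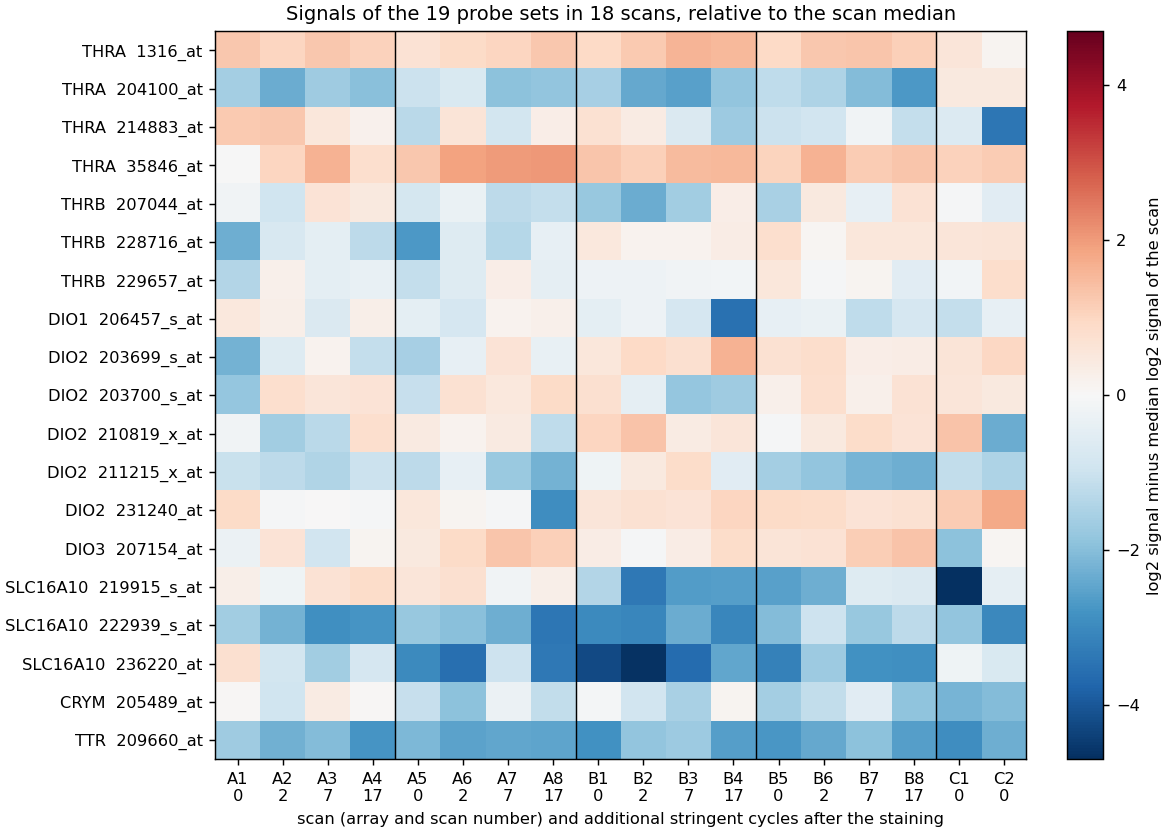
Relative log2 signal (colour, log2 signal minus the median log2 signal of the scan) of the 19 probe sets (rows) in the 18 scans (columns, with the additional stringent cycles below each name). Black lines separate array and series. The THRA probe sets 1316_at and 35846_at are red on nearly all scans, while TTR and SLC16A10 222939_s_at are blue on all 18.

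THRA, the receptor isoform that prevails in heart, bone and brain, had in 35846_at and 1316_at the probe sets of highest mean relative signal among the 19. Its other probe sets, 214883_at and 204100_at, had means of -0.36 and -1.55. Its probe set 35846_at had 134, 212, 281 and 149 on scans A1 to A4 and 271, 344, 355 and 363 on A5 to A8. On array B it had 158, 132, 160 and 155 in the first series and 129, 188, 120 and 131 in the second. Array C gave 109 and 135. The signals were above the scan median on 17 scans, all but A1, and above the olfactory receptor limit on 15. Probe set 1316_at ran from 64.4 on C2 to 331 on A1 with a median of 163. It was above the scan median on all 18 scans and above the limit on 10. Its spread over scans, 0.346 (SD of the relative log2 signals), was the lowest of the 19 and ranked at percentile 2.93 of all probe sets.

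The other THRA probe sets behaved differently. Probe set 214883_at, designed from the same accession as 1316_at (X55005), had 318 on A1 and 99.2 on A4, 104.0 on B1 and 16.5 on B4, and 5.59 on C2. The relative log2 signals of 214883_at and 1316_at correlated at a Pearson r of 0.423 over 18 scans, and at -0.10 without the 2 scans of array C. Probe set 204100_at had 70.0 and 80.3 on array C but only 21.0 to 56.1 on array A and 8.09 to 28.0 on array B, so that array C lay above all other scans. It passed the limit on no scan. Its r with 1316_at was -0.797 over 18 scans and -0.529 without array C. Over all 6 pairs of THRA probe sets r ran from -0.797 to 0.423. Scans of 1 array share their hybridization, so that these values describe 3 arrays. A further 3 probe sets carry the symbols of both THRA and NR1D1, a clock repressor encoded on the opposite strand, and were left out. Among them 31637_s_at had 237 to 659, above the limit on all 18 scans, and 217476_at had 4.42 to 30.2, above it on none.

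THRB, the receptor of liver, pituitary and inner ear, was measured by 3 probe sets that were above the olfactory receptor limit on 0, 2 and 1 scans. Probe set 207044_at ran from 11.9 on B2 to 141 on A3 with a median of 53.0. Probe set 229657_at ran from 36.3 on B8 to 125 on A2 with a median of 58.5, the narrowest range of signals in the gene, 3.45 times. Probe set 228716_at divided by array and is described with the arrays. The relative log2 signals of 228716_at and 229657_at correlated at 0.645, and 207044_at correlated with them at -0.072 and -0.22.

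DIO1 (206457_s_at), the deiodinase of liver, kidney and thyroid, had a median of 50.3 and its highest signal, 194, on A1. Scan B4 gave 4.66 where B3 had given 32.7 and B5 gave 48.9, so that its lowest value stood alone between neighbouring scans of the same array. It passed the limit on no scan. DIO2, which makes active hormone inside brown fat, pituitary and brain cells, is represented by 5 probe sets with medians of 35.6 to 101. They passed the limit on 0 to 5 scans. The most often above it, 231240_at, had 254, 103, 92.6 and 82.9 on A1 to A4 and 161, 102, 86.5 and 11.8 on A5 to A8, while array B stayed between 81.4 and 118. The only very low value was thus the last scan of array A. Probe set 210819_x_at, whose suffix marks probes that can bind other sequences, had 128 on C1 and 11.48 on C2. Probe set 203699_s_at ran from 29.4 on A1 to 165.7 on B4, 203700_s_at from 16.4 on B3 to 184.7 on A2, and 211215_x_at from 10.7 on B8 to 104.5 on B3, so that no scan was the highest for more than 1 DIO2 probe set. The 10 pairs of DIO2 probe sets correlated at -0.515 to 0.294, with a median of 0.132.

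DIO3 (207154_at), the inactivating deiodinase of placenta and fetal tissue, had 114, 168, 48.7 and 95.3 on A1 to A4 and 153, 176, 222 and 193 on A5 to A8. On array B it had 80.4, 58.0, 72.6 and 98.0 in the first series and 96.8, 97.0, 118 and 132.8 in the second. Array C gave 13.5 and 62.8. At each step the second series gave the higher signal, on all 3 arrays. It passed the olfactory receptor limit on 5 scans.

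SLC16A10, which carries aromatic amino acids and thyroid hormone across the plasma membrane, passed the limit with none of its 3 probe sets on any scan. Probe set 236220_at ran from 2.39 on B2 to 229.5 on A1, a 95.9-fold range, with 58.7 already on A2. Probe set 222939_s_at stayed between 6.37 and 44.3, below the scan median throughout. The pairs correlated at -0.061, 0.182 and 0.232.

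CRYM (205489_at), which binds triiodothyronine in the cytosol, had 141 on A1 and 11.2 on C1, with a median of 38.0. TTR (209660_at), made in liver and choroid plexus, had the lowest mean relative signal of the 19 probe sets. Its highest signal was 43.1 on A1, its median 14.9 and its lowest 6.78 on C1. Its SD of 0.385 ranked at percentile 4.83, so that it was low and steady, and it lay below the scan median by at least 1.66 on the log2 scale on every scan. Neither CRYM nor TTR passed the olfactory receptor limit on any scan. Of the 19 probe sets, 9 were highest on scan A1, the only scan before any stringent cycle, as were 30.8% of all probe sets, and 5 were lowest on C1 (13.4% of all).

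The first comparison asked how stringent washing after staining changed the signals, as 17 against 0 additional cycles on arrays A and B in both series (16 scans, limma on relative log2 signals with array and series as a block). None of the 19 probe sets passed an adjusted p of 0.05, whereas 4.57% of all probe sets were called higher and 1.05% lower (2501 and 575, and 1540 and 3613 without subtraction of the scan median). At an unadjusted p under 0.05 limma gave 1 of 19, against 22.4% of all probe sets. The estimates were positive for 10 and negative for 9 with a median of 0.049, against 0.004 over all probe sets, and adjusted p ran from 0.202 to 0.978. The largest estimates were 1.16 for THRB 207044_at (standard error 0.537, adjusted p = 0.23) and -1.03 for DIO2 231240_at (standard error 0.532, adjusted p = 0.28). Both rest on 1 array: THRB 207044_at stood at 0.17 without array B and 2.15 without array A, and DIO2 231240_at at 0.13 without array A and -2.20 without array B. The smallest unadjusted p belonged to THRA 204100_at, with -0.76 (standard error 0.33, 95% confidence interval -1.48 to -0.04, adjusted p = 0.202). Without subtraction of the scan median, which shifts the median change of all probe sets to -0.372, this probe set changed by -1.13 and passed (adjusted p = 0.0424, limma).

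Only 3 probe sets changed in the same direction in all 4 courses of washing. THRA 35846_at stood higher by 0.81, 0.22, 0.76 and 0.28 (relative log2 change from 0 to 17 cycles on array A and array B in the first and then the second series), and its fitted change was 0.52 (standard error 0.254, adjusted p = 0.256). DIO3 stood higher by 0.40, 0.54, 0.68 and 0.71, with a fitted change of 0.58 (standard error 0.316, adjusted p = 0.304). THRA 204100_at was lower by all 4 values, -0.34, -0.30, -0.85 and -1.53. Of all probe sets 15.9% were up in all 4 courses and 10.3% down, against 2 and 1 of 19. The estimates had both signs among the probe sets of THRA (0.29, -0.76, -0.48 and 0.52), of DIO2 (0.76, 0.61, -0.11, -0.50 and -1.03) and of SLC16A10 (0.24, -0.51 and 0.05). Those of THRB were all positive, at 1.16, 0.75 and 0.19. The intervals are wide: that of SLC16A10 236220_at, estimated at 0.05, ran from -1.49 to 1.59, and a missed threshold does not show that a signal was stable.

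**Figure D2:**
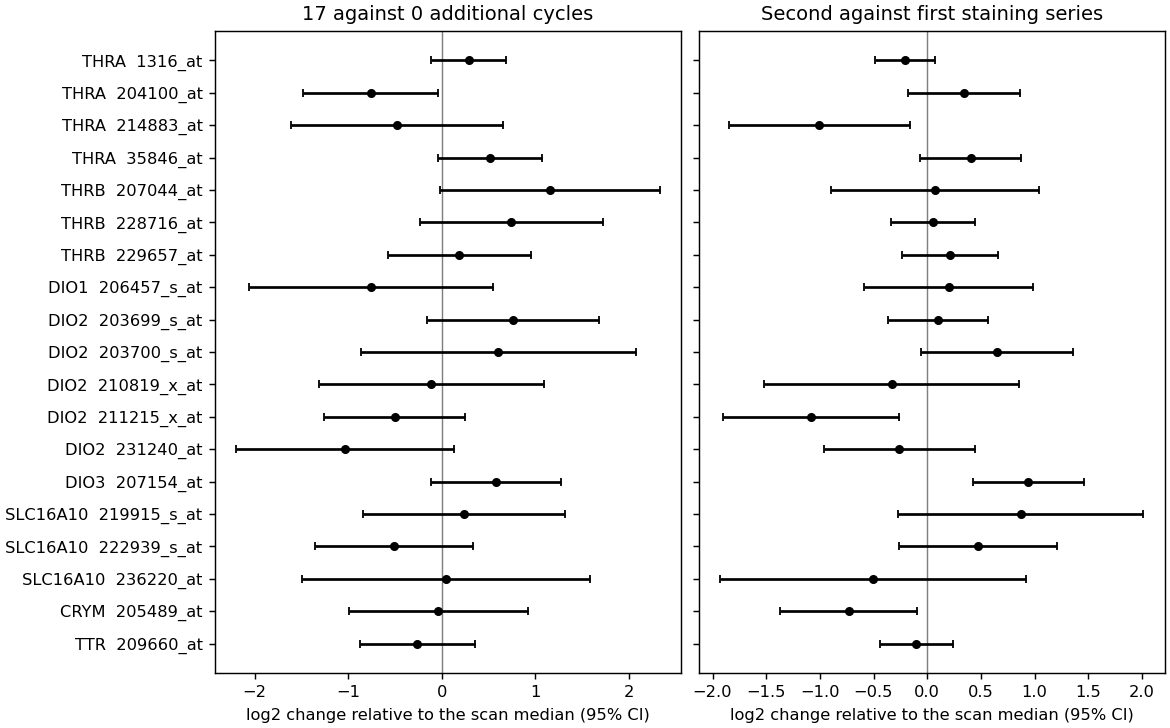
Fitted log2 change relative to the scan median (points) with 95% confidence intervals (bars) for each probe set, for 17 against 0 additional cycles (left, 16 scans) and for the second against the first staining series (right, 18 scans). Intervals that leave out 0 before adjustment are those of THRA 204100_at on the left, and of DIO3 and, below 0, THRA 214883_at, DIO2 211215_x_at and CRYM on the right.

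Whether washing acted differently after the second staining was tested as an interaction. No probe set was called in either direction, 0% higher and 0% lower among all 54675, although 2037 positive and 1523 negative differences had an unadjusted p under 0.05 (limma). With limma's trend option 1 was called higher. Among the 19 probe sets 1 had an unadjusted p under 0.05, against 6.51% of all probe sets. THRA 214883_at changed by -1.02 on array A and -2.40 on array B in the first series and by 1.61 and -0.10 in the second, a difference of 2.47 (standard error 0.837, adjusted p = 0.751).

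The second comparison asked how re-labelling changed the signals, as second against first series over 9 pairs of scans of the same array after the same number of additional cycles. The second series also came after all cycles and scans of the first (A1 had 0 total cycles, A5 17). Its staining and these earlier steps cannot be told apart in the pairs. None of the 19 probe sets passed, where 0.465% of all probe sets were called higher and 0.53% lower (254 and 290, and 161 and 296 without subtraction of the scan median). At an unadjusted p under 0.05 limma gave 4 of 19, a share near the 19.3% of all probe sets, and its trend option called none either. DIO3 came nearest, with 0.94 (standard error 0.234, 95% confidence interval 0.42 to 1.46, adjusted p = 0.0818). The 9 pairs repeat the same arrays. With the scans of each array averaged within a series, DIO3 stood at 1.21 (adjusted p = 0.769, limma). It was higher in all 9 pairs, by 0.26 to 2.22, and the largest differences were those from A3 to A7 (2.22) and from C1 to C2 (2.02), both of which start from a low value of the first series. Of all probe sets 1.8% were up in all 9 pairs and 1.69% down, and DIO3 was the only member among these. On array A the direct step from A4 to A5, which added a staining and no stringent cycle, changed DIO3 by 0.31.

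The 3 other probe sets with an unadjusted p under 0.05 were lower in the second series. DIO2 211215_x_at changed by -1.08 (standard error 0.369, adjusted p = 0.157) and was lower in 8 of 9 pairs. Without array B it stood at -0.25, so that its size rests on that array, where signals of 36.8 to 104.5 in the first series stood against 10.7 to 20.8 in the second. THRA 214883_at changed by -1.01 (standard error 0.379, adjusted p = 0.193) and CRYM by -0.73 (standard error 0.288, adjusted p = 0.208), lower in 6 and 7 of 9 pairs. SLC16A10 219915_s_at changed by 0.87 (standard error 0.514, adjusted p = 0.38), and 1 pair, from 2.01 on C1 to 43.6 on C2, alone gave 4.24. TTR changed by -0.10 with an interval of -0.44 to 0.24, the narrowest after that of THRA 1316_at, which changed by -0.21 (-0.49 to 0.07).

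**Figure D3:**
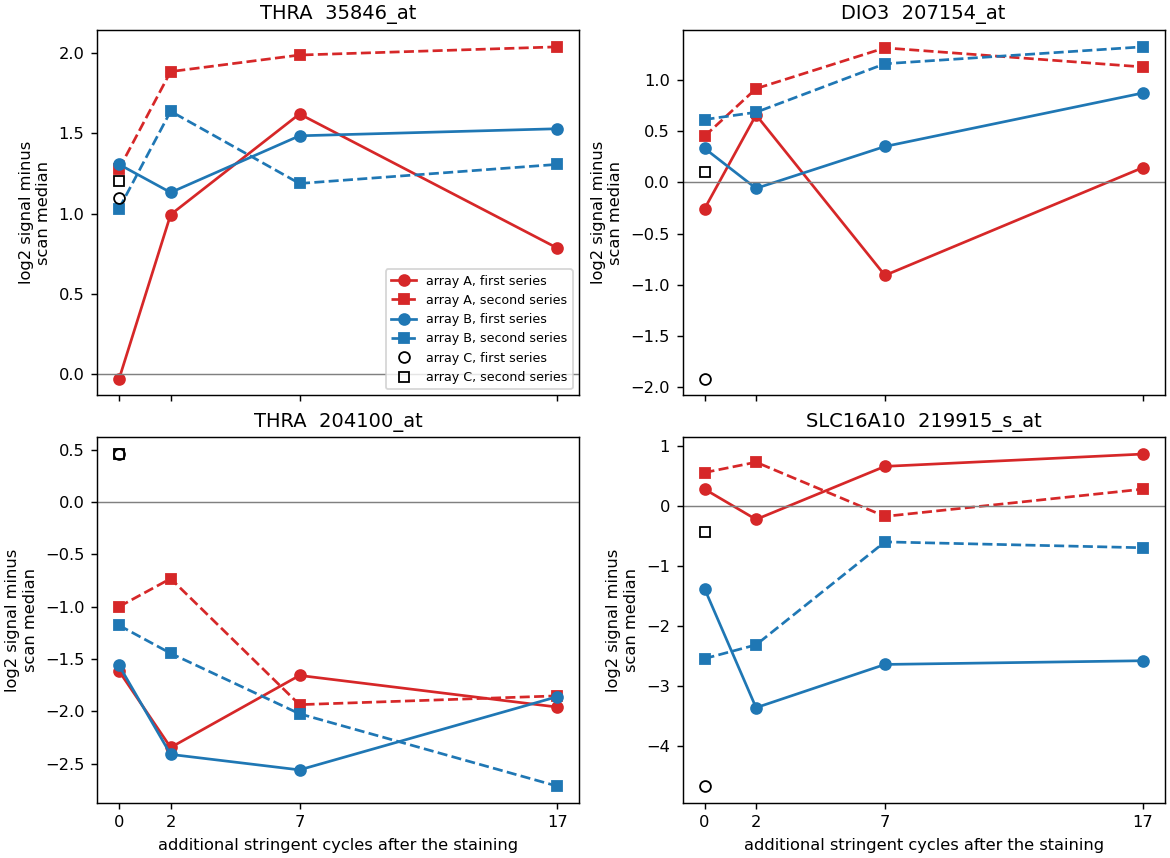
Relative log2 signal (y axis) against additional stringent cycles after the staining (x axis) for 4 probe sets, with array A in red, array B in blue and array C as open symbols, and with the first series as solid lines and circles and the second as dashed lines and squares. Both scans of array C coincide for THRA 204100_at, above all others, and the array A lines of SLC16A10 lie above those of array B throughout.

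The arrays differed for some members more than the washing did. Arrays A and B took aliquots of the same mix but differ in their hybridization and in the 2 cycles before staining, which cannot be told apart. SLC16A10 219915_s_at had signals from 79.7 to 166 on the 8 scans of array A and from 5.90 to 35.0 on the 8 scans of array B. The groups do not overlap, and the mean relative log2 signals were 0.38 and -2.01, which differ by 2.39. Array C gave both the lowest value, 2.01, and 43.6. THRB 228716_at divided the other way. Array A gave 17.1 to 67.1 and array B 64.1 to 110.5, with mean relative log2 signals of -1.22 and 0.40, and relative to the scan median all scans of array A lay below those of array B. Array C, at 76.6 and 89.6, lay within the range of array B. For the other 17 probe sets the relative log2 signals of arrays A and B overlapped. Of all probe sets 2.64% lay higher on every scan of array A and 16.9% lower, against 1 of 19 in each direction. This comparison of arrays was added after the values had been seen and was not tested, since scans of an array repeat 1 hybridization. Without centring, which leaves the higher scan medians of array A in, 3 probe sets lay higher on array A and 0 lower. Of all probe sets 10.4% lay higher and 2.35% lower in this setting. The 3 were SLC16A10 219915_s_at, THRA 1316_at (175.2 to 331.1 on array A, 115.4 to 171.4 on array B) and DIO1 (53.4 to 193.6 and 4.66 to 51.7).

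The share of the variance over 16 scans that lay between arrays A and B was 73.5% for SLC16A10 219915_s_at and 64.9% for THRB 228716_at, followed by 53.9% for DIO2 203699_s_at. It was below 1% for THRA 35846_at (0.00468%) and TTR (0.438%). The median was 14.9% over the 19 probe sets and 28.4% over all probe sets. The spread over 18 scans had a median SD of 0.897 in the members and 0.881 in all probe sets, and it was widest in SLC16A10, with 1.63 for 219915_s_at and 1.51 for 236220_at, the first of which ranked at percentile 97.6.

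**Figure D4:**
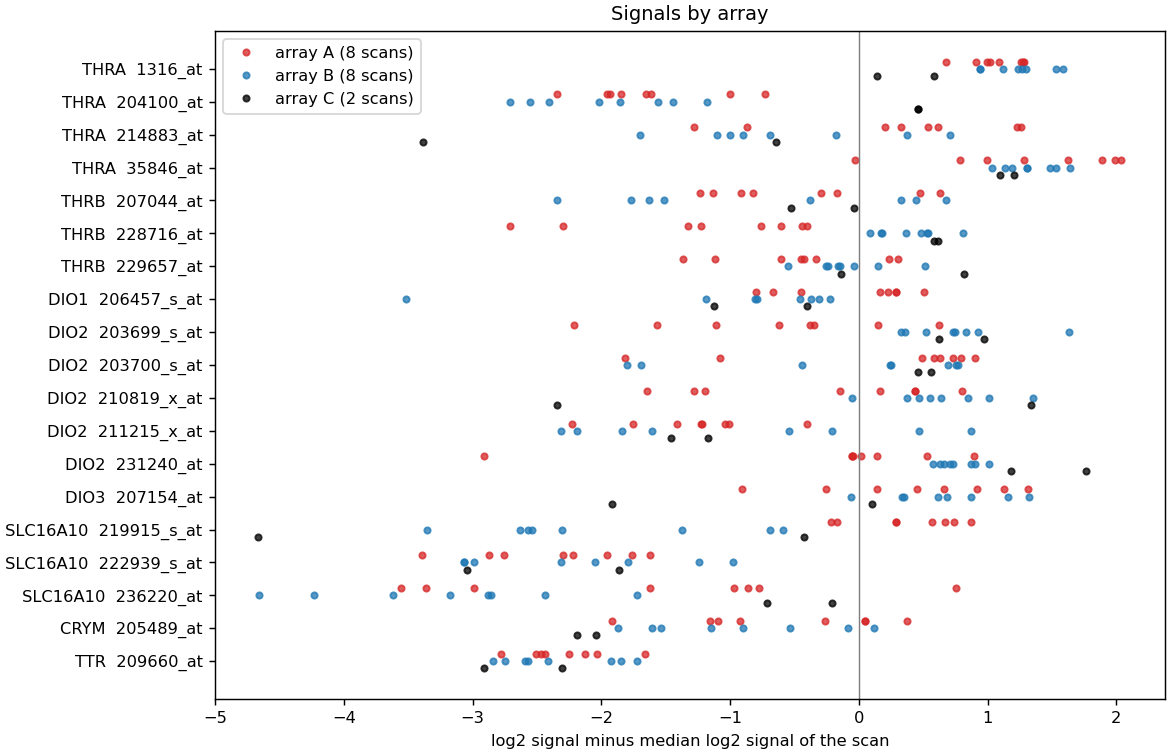
Relative log2 signals (x axis) of each probe set (rows) on the 8 scans of array A (red), the 8 of array B (blue) and the 2 of array C (black). SLC16A10 219915_s_at and THRB 228716_at are the rows in which red and blue do not overlap.

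Of each member gene whose brightest probe set had a mean log2 signal above the median of all probe sets, the genes most alike over the 18 scans were listed by Pearson r of relative log2 signals. For THRA 35846_at they were ATXN2 (0.86), LUC7L (0.858) and FRMD5 (0.825), for THRB 229657_at IL15 (0.844), ABCC5 (0.831) and HNRNPL (0.823). For DIO2 231240_at they were TBL2 (0.92), SREK1IP1 (0.896) and MIR100HG (0.887), and for DIO3 PTP4A3 (0.893), PIGV (0.854) and TMEM86A (0.848). These are the highest of many correlations over scans of 3 arrays that carry the same RNA, and are given as a description. DIO1, SLC16A10, CRYM and TTR did not reach the median.

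Other genes of hormone action were followed by the probe set with the highest mean log2 signal of each, for 40 of 46 listed genes. Of these 16 of 40 passed the olfactory receptor limit on all 18 scans, and 17.0% of all probe sets did. The list was represented by probe sets picked for their signal, and its difference from the members was not tested. Among the receptor partners RXRA (355 to 677) and RXRB (185 to 394) passed throughout, but RXRG (5.10 to 47.0) on no scan. Of the corepressor subunits 3 of 4 passed on all scans, among them the deacetylase HDAC3 (740.1 to 972), and of the coactivators 4 of 6, among them the Mediator subunit MED1 (938 to 1597). SLC3A2, the heavy chain of amino acid transporters that also carry thyroid hormone, passed on all scans (329.8 to 629.8). The organic anion transporter SLCO1C1 and the iodotyrosine deiodinase IYD passed on none. Of the factors for selenoprotein synthesis SECISBP2 (299.8 to 618), which the translation of deiodinases needs, and SEPHS2 (447 to 896) passed on all 18. Of 8 target genes the protease FURIN, ME1 and HIF1A passed on all scans. CPT1A passed on 17, HR on 6, THRSP on 4, KLF9 on 2 and PCK1 on none.

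Over 17 additional cycles 4 of these 40 genes were called higher relative to the scan median and 0 lower, against 4.57% and 1.05% of all probe sets. They were HIF1A (1.35, standard error 0.244, adjusted p = 0.0103, limma), the malic enzyme ME1 (0.83, adjusted p = 0.0196), the integrin subunit ITGAV (0.75, adjusted p = 0.0284) and the corepressor subunit TBL1XR1 (0.92, adjusted p = 0.0366). These are also the 4 with the highest signals in the list, 19850, 2942, 5235 and 2176 on scan C1, and the part of brightness in this was not tested. Without subtraction of the scan median the 4 changes were 0.98, 0.45, 0.37 and 0.55 in the same order. These signals are still scaled per scan, so that no absolute rise is shown. With quantile normalization only 2 probe sets of the whole array were called higher, and without array A or array B none. The median change of the 40 genes was 0.216, against 0.004 over all probe sets and 0.187 over the 27338 probe sets of higher mean. In a fit of those 27338 alone, 4660 were called higher and 796 lower. Under re-labelling 0 of the 40 were called in either direction (limma). Their median change was 0.125, against 0.024 over all probe sets and 0.052 over the 27338 of higher mean.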

How the data were processed

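The deposited values are MAS5 signals (version not given in the sources used here), made by the authors from perfect match and mismatch intensities of 18 scans of 3 HG-U133 Plus 2.0 arrays and scaled per scan to a common trimmed mean. Scaling removes a shared loss of signal, so only changes relative to other probe sets can be measured. Of 54675 probe sets 41097 have 1 gene symbol in the platform annotation. All 19 member entries were found in the RefSeq gene table, which changed 0 symbols.

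Signals were taken to log2 without an offset or filter, the median of each scan was subtracted, and all probe sets were fitted in R 4.3.3 by limma 3.58.1, with version 1.17.8 of data.table for reading. Washing used the step as a factor with array and series as a block, the interaction the same scans, while re-labelling was blocked on array and step. The threshold was a Benjamini-Hochberg adjusted p of 0.05. Scans with the same array letter are the same physical array. The fits were also run on simulated data with independent noise per scan, which do not imitate repeated scans of the same arrays. Descriptions and plots used Python 3.11.15, numpy 2.4.6, pandas 2.3.3, scipy 1.17.1 and matplotlib 3.10.9.

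The members, marker and pathway lists were chosen with earlier results of these data known. All member probe sets are named, and of the pathway list genes called or among the 5 brightest could be named; those named beside the olfactory receptor limit were chosen after their values were seen. Each listed gene stands by its probe set with the highest mean log2 signal. The 3 genes most like a member were taken from probe sets with 1 symbol above the median signal. Alternatives were no centring, quantile normalization, an offset of 16, only the 27338 probe sets of higher mean, limma's trend and robust options, no block, washing as a line, single series, arrays as units and leaving out arrays. The 3 arrays and the single RNA sample limit the precision. Apart from the setting with arrays as units, the fits take scans as units. Their p-values therefore measure technical spread only, among repeated scans of the same arrays. Probe sequences and genome positions were not used here.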

Additional observations from a re-analysis of the deposited data

How the results depend on the processing

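No member probe set passed the threshold under any alternative run, except THRA 204100_at without centring. Over all probe sets, washing gave 2501 higher and 575 lower calls, which became 1540 and 3613 without centring, 2 and 1 with quantile normalization, 4853 and 941 under limma's trend and robust options, and 4159 and 1425 with washing as a line. Among the 27338 brighter probe sets 4660 were higher. Without the replicate block, in each series alone and without array A or array B there were 0 and 0. In each series alone and without array A or array B 8 scans were left, and why the calls were lost was not tested. The interaction gave 1 higher under the trend option and 0 otherwise; without array A or array B it used washing as a line. Re-labelling gave 254 higher and 290 lower, against 161 higher without centring, 471 and 477 with an offset of 16, 143 and 114 among the brighter probe sets, 517 and 492 under the trend option, 150 and 177 without the block, and 0 and 0 with arrays as units. Leaving out arrays gave 0 to 278 higher and 0 to 336 lower, with 0 and 0 without array B and 36 and 42 without array A. The count of members higher on all scans of array A was 3 without centring (10.4% of all probe sets). It was 1 with quantile normalization (3.5%) and 1 with an offset of 16 (1.97%). Among the brighter probe sets it was 0 of 9 members (1.63% of those probe sets). SLC16A10 219915_s_at was left out there by its low mean, so that this 0 does not bear on it. The count of members lower on all scans of array A was 0 without centring (2.35%). It was 1 with quantile normalization (4.0%), 1 with the offset (15.6%) and 1 of 9 among the brighter probe sets (32.3%). These alternatives for the arrays were chosen after seeing the data.

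Washing estimates changed sign, all without a call, in these cases. Without centring THRA 1316_at stood at -0.0880, SLC16A10 219915_s_at at -0.14, THRB 229657_at at -0.19 and SLC16A10 236220_at at -0.33. Quantile normalization gave TTR 0.0762, and an offset gave CRYM 0.0176 and SLC16A10 236220_at -0.12. The first series alone gave CRYM 0.0972, DIO2 210819_x_at 0.25 and SLC16A10 219915_s_at -0.31. The second gave DIO1 0.13, THRA 214883_at 0.76, THRB 229657_at -0.19 and SLC16A10 236220_at -0.0357. Washing as a line gave CRYM 0.18. Leaving out array A or array B ranged from -0.9985 to 2.21 for DIO2 203700_s_at, -1.74 to 0.23 for DIO1, -0.73 to 0.21 for TTR, -0.34 to 0.12 for DIO2 210819_x_at, -1.25 to 0.29 for THRA 214883_at, -1.38 to 0.36 for SLC16A10 222939_s_at, -0.20 to 1.69 for THRB 228716_at, -0.49 to 0.86 for THRB 229657_at, -2.20 to 0.13 for DIO2 231240_at and -0.95 to 1.05 for SLC16A10 236220_at.

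Re-labelling estimates that changed sign were THRB 207044_at, with -0.0182 under an offset and -0.0677 with arrays as units, and TTR, with 0.0754 with arrays as units. Leaving out an array ranged from -0.24 to 0.49 for DIO2 203699_s_at, -0.11 to 0.61 for DIO1, -0.80 to 0.83 for THRB 207044_at, -1.02 to 0.0873 for DIO2 210819_x_at, -0.22 to 0.84 for SLC16A10 222939_s_at, -0.0566 to 0.16 for THRB 228716_at, -0.50 to 0.15 for DIO2 231240_at, -1.77 to 0.76 for SLC16A10 236220_at and -0.0363 to 0.79 for THRA 35846_at. DIO3 kept its sign in all settings run, from 0.76 with an offset to 1.24 without array B, with adjusted p of 0.0538 to 0.769. The causes were not tested. Signal over background was not measured, so that no member's signal is shown to be that of its transcript.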
